A study of Mus musculus with 8 samples.

Results

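The genes described here make sterols and fatty acids, control that synthesis, or carry and export its products. They are 33 of the 53379 genes counted in 4 lines of mouse mammary carcinoma cells, chosen by symbol from known pathway membership and matched to gene IDs through the GENCODE M21 annotation of the GRCm38 (mm10) genome. All 33 passed the filter on low counts that left 15890 genes for testing.

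All 4 lines have a C57BL/6 background and were grown adherent, as monolayers, in DMEM/F12 medium with 5% adult bovine serum. pB2 and pB3 are tumour-derived lines of the MMTV-PyMT model, in which a mammary tumour virus promoter drives the polyoma middle T oncogene. Epcam hi and 687g are tumour-derived lines of MMTV-PyMT-Snail-IRES-YFP reporter mice, so that all 4 lines come from animals with the same oncogene. The series presents them as breast cancer models associated with the epithelial-mesenchymal transition. Each line has 2 libraries, made from total RNA with an mRNA kit, and the labels do not state whether these come from separate cultures, so the spread behind each p-value may be technical. No untreated normal tissue or treated arm belongs to the design, and each line is 1 line of its kind: a difference between 2 lines cannot be told apart from the history of those lines.

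Cells make cholesterol from acetyl-CoA through mevalonate, the isoprenoid pyrophosphates, squalene and lanosterol. When sterols in the endoplasmic reticulum run low, the chaperone SCAP carries the SREBP transcription factors to the Golgi, where they are cleaved and released to the nucleus; INSIG proteins hold SCAP back when sterols are plentiful. SREBP-2 acts mainly on sterol genes and SREBP-1 mainly on fatty acid genes, while the LXR receptors, which bind oxysterols, raise sterol export and the gene of SREBP-1. Mammary epithelium uses these pathways for membrane and milk lipid. Serum in the medium supplies sterols, and the same serum share was used for all lines.

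The upstream DNA of 4 members is shown here because their levels differed among the lines and the windows differ in the short motifs that they hold. Of the 33 members, 27 matched an entry in the RefSeq promoter table (build GRCm38.p6), which covers 250 bases before to 50 after each start site. Each stretch of 140 bases reads 5′ to 3′ on the gene's own strand and stops before the start of the gene in both annotations. Capitals mark 4 motifs searched on both strands: TCACNCCAC, a form of the sterol regulatory element, CACGTG, the E-box that SREBPs can also bind, CCAAT, bound by NF-Y, and GGGCGG, bound by Sp1. Reverse complements of CCAAT and GGGCGG appear as ATTGG and CCGCCC. Hmgcs1 lies at chr13:119690211-119690350 (plus strand), Mvk at chr5:114444129-114444268 (plus strand), Insig1 at chr5:28071223-28071362 (plus strand) and Cyp51 at chr5:4104747-4104886 (minus strand).
Hmgcs1: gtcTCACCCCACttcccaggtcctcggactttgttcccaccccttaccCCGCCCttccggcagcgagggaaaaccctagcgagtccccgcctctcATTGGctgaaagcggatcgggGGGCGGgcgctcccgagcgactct
Mvk: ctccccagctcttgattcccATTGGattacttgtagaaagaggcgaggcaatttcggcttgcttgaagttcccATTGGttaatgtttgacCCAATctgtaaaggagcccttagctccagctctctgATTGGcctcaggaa
Insig1: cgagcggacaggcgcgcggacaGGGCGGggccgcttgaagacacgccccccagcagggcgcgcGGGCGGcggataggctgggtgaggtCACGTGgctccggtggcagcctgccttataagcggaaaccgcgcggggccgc
Cyp51: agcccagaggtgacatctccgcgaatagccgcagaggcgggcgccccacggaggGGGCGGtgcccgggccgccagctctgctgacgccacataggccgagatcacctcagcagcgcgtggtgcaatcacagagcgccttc

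In the full windows, TCACNCCAC was found for 1 of the 27 members, Hmgcs1, with its first base 137 bases before the start site, against 1.35% of the tested genes with a window. CCAAT was found for 20 members (74.1%, against 43% of tested genes), GGGCGG for 21 (77.8%, against 68.1%) and CACGTG for 6 (22.2%, against 11.5%). A match describes letters in the window and is not a measured binding site.

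Library totals ran from 12442730 to 19149916 counts, and 3 counts correspond to 0.159 to 0.222 CPM, where CPM is the count scaled to a common library total, after trimmed mean of M values (TMM) normalisation. Mitochondrial genes took 0.375% to 1.90% of counts. Over all tested genes, the share over 2-fold apart between replicates was 2.96% (pB2), 3.22% (pB3), 13.4% (Epcam hi) and 6.32% (687g). Over the 33 members the median size of the replicate difference on the log2 scale was 0.19 (pB2), 0.064 (pB3), 0.28 (Epcam hi) and 0.26 (687g). Replicate 2 of 687g was lower than replicate 1 for most members, with 10 of 33 higher and a median difference of -0.25. A change was called when the adjusted p of edgeR's quasi-likelihood F test, with Benjamini-Hochberg adjustment over all tested genes, was under 0.05.

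The lines differed in their sterol and fatty acid genes, with the level in pB2 above that in the other lines for most members and the level in Epcam hi below it. Of the 33 members, 26 (78.8%) differed among the 4 lines, against 66.5% of all tested genes. The 7 that did not pass this test were Fdps, Sc5d, Srebf2, Scap, Acly, Acaca and Fasn. Among the 4 line means, pB2 was the highest for 20 members (60.6%), compared with 32.5% of all tested genes. Epcam hi was the lowest for 18 members (54.5%), compared with 22.7% of all tested genes. pB3 was the highest for 10 members (30.3%, against 15.1% of all tested genes) and the lowest for 0 (against 17%). 687g was the highest for 2 (6.06%, against 24.1%) and the lowest for 7 (21.2%, against 24.3%). pB2 was the lowest for 8 members (24.2%, against 36.1%). No test was made of these shares.

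The summed level of the 33 members was 8849 and 9361 CPM (pB2), 6553 and 6629 (pB3), 4410 and 5002 (Epcam hi) and 5469 and 5092 (687g). The libraries of pB2 stood above all others and those of Epcam hi below them. Such sums weigh the most abundant transcripts most. Per kilobase of exon, the mean CPM over the lines was highest for Scd2 (168 CPM per kb), Cyp51 (156), Scd1 (136), Msmo1 (117) and Insig1 (107). It was lowest for Acaca (1.64 CPM per kb), Nr1h3 (0.235) and Abca1 (0.0683).

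**Figure D1:**
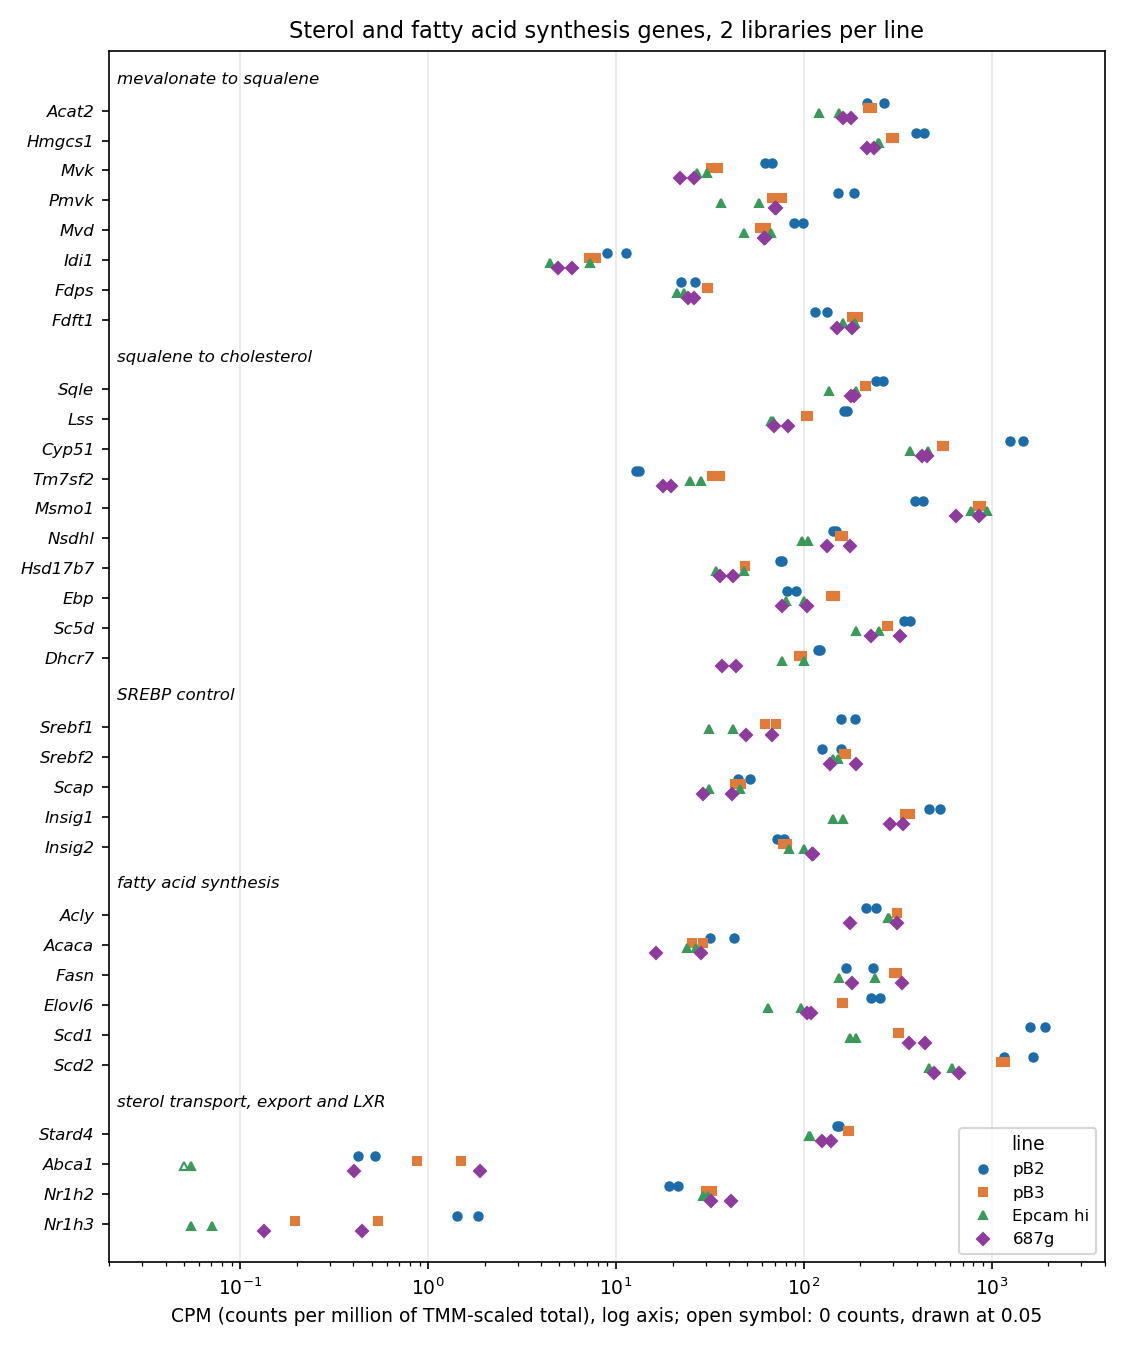
Level of each of the 33 members in each library, in CPM on a log axis, grouped by role; each symbol is 1 library and an open symbol marks 0 counts, drawn at 0.05 CPM. The pB2 libraries lie to the right for Scd1, Cyp51, Srebf1, Pmvk and Mvk, and to the left for Tm7sf2, Msmo1 and Nr1h2.

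Within the MMTV-PyMT model, 17 of 33 members (51.5%) were called between pB3 and pB2, against 44.8% of all tested genes. Of these, 5 were higher in pB3 and 12 lower, where 21.6% and 23.2% of all tested genes were called higher and lower. Without the TMM scaling, using total counts, the split was 3 higher and 14 lower; that scaling moved the median of all genes by -0.19 on the log2 scale. The median log2 fold change of the members was -0.29, beside 0.02 for all tested genes. Fewer members were called each way when 1 of the 4 libraries of the pair was left out. A fit of those 4 libraries alone gave 9 higher and 15 lower. The share of all tested genes called in these fits is not given here, so the counts cannot be set against the 44.8% above.

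Within the MMTV-PyMT-Snail-IRES-YFP model, 8 of 33 members (24.2%) were called between 687g and Epcam hi, fewer in share than the 36.4% of all tested genes. Of these, 6 were higher in 687g and 2 lower, where 18.4% and 18% of all tested genes were. The split was 3 and 2 with total counts, which moved the median of all genes by -0.12, and 6 and 1 with DESeq2 size factors in edgeR. The median log2 fold change of the members was 0.15, beside -0.03 for all tested genes. The number called higher fell without 687g replicate 1. It was 2 when only the 4 libraries of the pair were fitted, for which the share of all tested genes is likewise not given here.

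These 2 pairs share no library. A total of 5 members (15.2%) were called in both, and all 5 changed in opposite directions. Of all tested genes, 20.8% were called in both, and 42.7% of those changed in opposite directions. Scd1, Srebf1, Insig1 and Pmvk were below their pB2 level in pB3 and above their Epcam hi level in 687g, and Tm7sf2 was the other way round. Only Scd1 kept both calls under every alternative tried. For Srebf1, Pmvk and Tm7sf2, the call in 687g against Epcam hi was lost with only the 4 libraries of that pair. For Insig1, the call in pB3 against pB2 was lost without the low-count filter. A test of the difference between the 2 changes, again edgeR's quasi-likelihood F test, called 13 members (39.4%), beside 37.7% of all tested genes. It numbered 8 without pB3 replicate 1 and 7 without pB3 replicate 2.

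**Figure D2:**
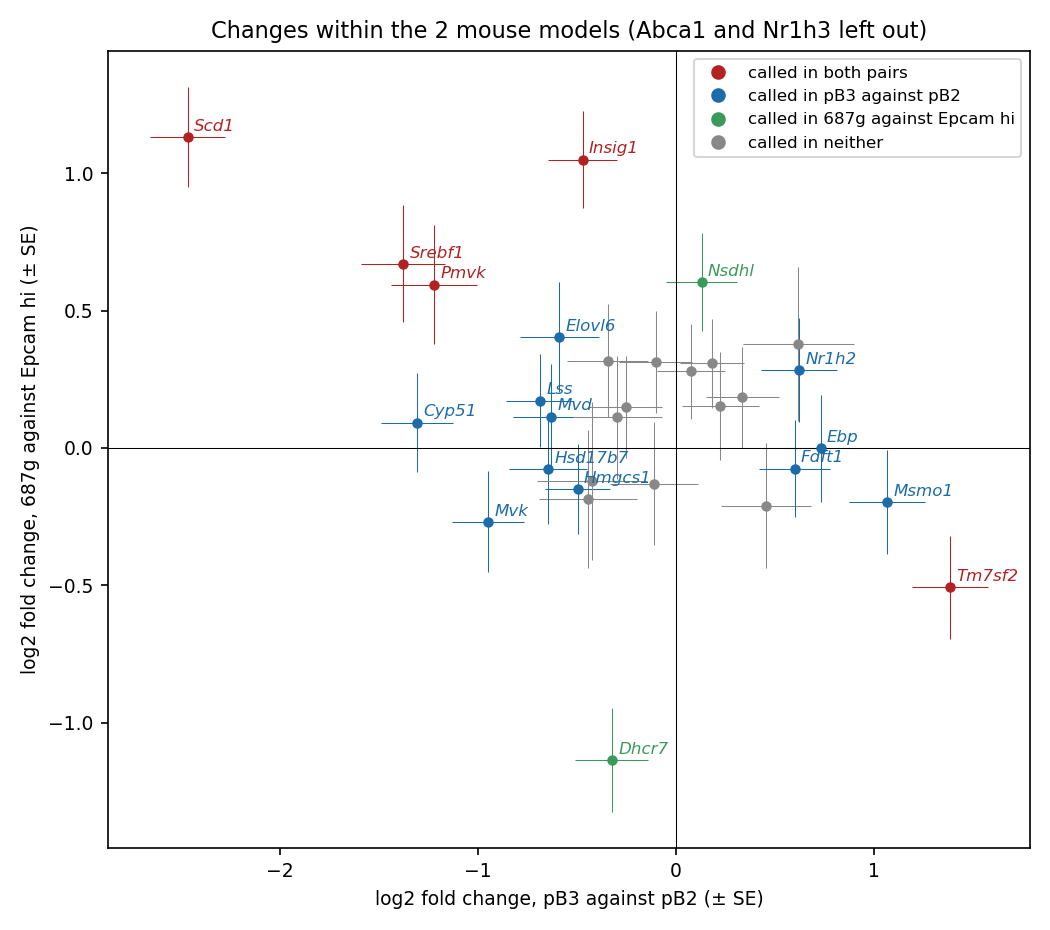
Log2 fold change of pB3 against pB2 (horizontal) and of 687g against Epcam hi (vertical), with standard errors, for 31 members; colours show in which pair a member was called. Scd1, Srebf1, Pmvk and Insig1 lie in the upper left and Tm7sf2 in the lower right, and no member called in both pairs lies in the upper right or lower left; Abca1 and Nr1h3, with few counts, are left out.

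The first group of members turns acetyl-CoA into squalene, and its 8 genes were mostly highest in pB2. Between pB3 and pB2, 4 were lower, 1 was higher and 3 did not pass (62.5% called, against 44.8% of all tested genes). Between 687g and Epcam hi, 1 was higher and 7 did not pass (12.5% called, against 36.4%). Hmgcs1, whose enzyme condenses acetoacetyl-CoA with acetyl-CoA and whose upstream window holds the TCACCCCAC stretch printed above, had 439 and 395 CPM (pB2), 291 and 301 (pB3), 252 and 248 (Epcam hi) and 235 and 216 (687g). Its libraries fell in the order of the lines with no overlap between them. The change from pB2 to pB3 was -0.49 ± 0.16 (log2, SE, adjusted p = 0.0247). It missed the threshold without the low-count filter and without any 1 of the 4 libraries of the pair.

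Pmvk, the kinase that makes mevalonate pyrophosphate, had 185 and 152 CPM (pB2), 67.8 and 76.8 (pB3), 57.4 and 36.2 (Epcam hi) and 71.2 and 70.0 (687g). The pB2 libraries were above all others and the Epcam hi libraries below all others. It was lower in pB3 than in pB2 by -1.22 ± 0.22 (adjusted p = 0.000395). It was higher in 687g than in Epcam hi by 0.59 ± 0.22 with an adjusted p of 0.0467. The latter call was lost with total counts and with only the libraries of the pair. It was also lost when any 1 of 6 libraries was left out, both 687g libraries, Epcam hi replicate 2, both pB3 libraries and pB2 replicate 1.

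Mvk, the mevalonate kinase that acts just before, had 67.5 and 62.0 CPM (pB2), 32.1 and 35.1 (pB3), 26.9 and 30.7 (Epcam hi) and 25.9 and 21.8 (687g). The lines did not overlap, with pB2 far above the rest, and the change from pB2 to pB3 was -0.95 ± 0.18 (adjusted p = 0.000707). Mvd, the mevalonate pyrophosphate decarboxylase, had 98.8 and 88.6 CPM in pB2 and between 47.8 and 66.7 in the other 6 libraries. It was lower in pB3 by -0.63 ± 0.19 (adjusted p = 0.0161), a call that was lost without pB2 replicate 1, pB3 replicate 1 or pB3 replicate 2 (adjusted p from 0.0884 to 0.162).

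Fdft1, the squalene synthase, went the other way. It had 132 and 115 CPM (pB2), 181 and 194 (pB3), 187 and 162 (Epcam hi) and 181 and 151 (687g). Both pB2 libraries were the lowest, and pB3 was higher by 0.60 ± 0.18 (adjusted p = 0.0135). The call was lost with total counts and without pB2 replicate 2, pB3 replicate 1 or pB3 replicate 2 (adjusted p from 0.0754 to 0.146).

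The other 3 genes of this group changed in neither pair. Acat2, the cytosolic thiolase at the head of the pathway, ran from 120 CPM in an Epcam hi library to 267 in a pB2 library, and its neighbours in the order of the line means did not differ beyond their spread. Idi1, the isopentenyl pyrophosphate isomerase, ran from 4.43 to 11.3 CPM. Fdps, the farnesyl pyrophosphate synthase, ran from 21.1 to 30.7 CPM and was among the members that did not differ among the lines.

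The second group turns squalene into cholesterol, and its 10 genes split in both directions. Between pB3 and pB2, 3 were higher, 3 lower and 4 did not pass (60% called). Of all tested genes, 44.8% were called in that pair, 21.6% higher and 23.2% lower. Between 687g and Epcam hi, 1 was higher, 2 were lower and 7 did not pass (30% called, against 36.4% of all tested genes). Cyp51, the lanosterol demethylase (chromosome 5, from 4081145 to 4104746), had 1466 and 1251 CPM (pB2), 542 and 558 (pB3), 365 and 456 (Epcam hi) and 424 and 453 (687g). The pB2 libraries were above all others, those of pB3 were above those of both other lines, and Epcam hi and 687g overlapped. The change from pB2 to pB3 was -1.31 ± 0.18 (adjusted p = 4.86e-05), and the change from Epcam hi to 687g was 0.09 ± 0.18 (adjusted p = 0.729).

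Tm7sf2 and Msmo1, which act just after Cyp51, ran against it. Tm7sf2, a sterol reductase, had 13.2 and 12.8 CPM (pB2), 32.4 and 35.6 (pB3), 24.7 and 28.4 (Epcam hi) and 17.8 and 19.6 (687g). The 4 lines did not overlap, with pB2 lowest and pB3 highest. It was higher in pB3 than in pB2 by 1.39 ± 0.19 (adjusted p = 4.22e-05). It was lower in 687g than in Epcam hi by -0.51 ± 0.19 with an adjusted p of 0.0491. That last call was lost without 7 of the 8 libraries in turn, all but Epcam hi replicate 1 (adjusted p from 0.085 to 0.268), and with DESeq2, DESeq2 size factors, no low-count filter or only the libraries of the pair.

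Msmo1, the sterol C4 methyl oxidase, had 430 and 389 CPM (pB2), 845 and 873 (pB3), 776 and 942 (Epcam hi) and 645 and 854 (687g). In pB2 both libraries were below all others, and the other 3 lines overlapped. The change from pB2 to pB3 was 1.07 ± 0.19 (adjusted p = 0.000426). Msmo1 was the sole member with its highest mean in Epcam hi, where it was level with pB3 (859 CPM in both).

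Ebp, the sterol isomerase, had 90.6 and 81.6 CPM (pB2), 139.97 and 146 (pB3), 80.4 and 101 (Epcam hi) and 76.9 and 104 (687g). Only pB3 stood apart, higher than pB2 by 0.73 ± 0.20 (adjusted p = 0.00724), and the call was lost without pB2 replicate 2 or pB3 replicate 2 (adjusted p 0.0681 and 0.0965). Lss, the lanosterol synthase, had 163 and 170 CPM (pB2), 103 and 105 (pB3), 66.7 and 68.3 (Epcam hi) and 82.8 and 69.2 (687g). The lines did not overlap, and pB3 was lower than pB2 by -0.69 ± 0.17 (adjusted p = 0.00441), which was lost without either pB3 library (adjusted p 0.0663 and 0.0805). Hsd17b7, a sterol ketone reductase, had 74.6 and 76.8 CPM in pB2 and 33.9 to 48.6 in the other libraries, and was lower in pB3 by -0.64 ± 0.20 (adjusted p = 0.0163); leaving out any 1 of the 4 libraries of the pair gave an adjusted p from 0.0676 to 0.126.

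Dhcr7, which makes cholesterol in the last step of one branch, had 118 and 122 CPM (pB2), 97.3 and 94.7 (pB3), 76.9 and 99.9 (Epcam hi) and 43.8 and 36.7 (687g). The 687g libraries were below all others. The change from Epcam hi to 687g was -1.14 ± 0.19 (adjusted p = 0.000296), kept under all 15 alternatives tried, while pB3 and pB2 did not differ beyond the threshold (-0.32 ± 0.18, adjusted p = 0.179).

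Nsdhl, a sterol dehydrogenase that works with Msmo1, had 148 and 142 CPM (pB2), 157 and 161 (pB3), 105 and 97.9 (Epcam hi) and 176 and 133 (687g). The Epcam hi libraries were the lowest, and 687g was higher by 0.60 ± 0.18 (adjusted p = 0.0176), a call lost with total counts, with only the libraries of the pair, and without 687g replicate 1 (adjusted p 0.0834). Sqle, the squalene epoxidase, ran from 136 CPM in an Epcam hi library to 265 in a pB2 library, and Sc5d, a sterol desaturase, from 190 in Epcam hi to 367 in pB2. Neither changed within a model.

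Of the 5 genes that control SREBP, Srebf1 and Insig1 changed in both pairs and Srebf2, Scap and Insig2 in neither. That is 40% called in each pair, beside 44.8% (pB3 against pB2) and 36.4% (687g against Epcam hi) of all tested genes. Srebf1 encodes SREBP-1 and lies on chromosome 11 from 60199089 to 60222581. It had 157 and 188 CPM (pB2), 62.3 and 70.9 (pB3), 31.4 and 41.9 (Epcam hi) and 67.4 and 49.3 (687g). The pB2 libraries were the highest, the Epcam hi libraries the lowest, and pB3 and 687g overlapped. It was lower in pB3 than in pB2 by -1.37 ± 0.21 (adjusted p = 0.000114). It was higher in 687g than in Epcam hi by 0.67 ± 0.21 with an adjusted p of 0.0243. This second call was lost with total counts, with only the libraries of the pair, and without Epcam hi replicate 1 or 687g replicate 1 (adjusted p 0.15 and 0.158).

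Insig1, which retains SCAP and is itself a target of SREBP, lies on chromosome 5 from 28071363 to 28078662. It had 529 and 463 CPM (pB2), 347 and 369 (pB3), 161 and 142 (Epcam hi) and 289 and 339 (687g). The Epcam hi libraries were below all others and those of pB2 above. The change from Epcam hi to 687g was 1.05 ± 0.18 (adjusted p = 0.00034) and was kept under every alternative tried. The change from pB2 to pB3 was -0.47 ± 0.17 with an adjusted p of 0.0416, which was lost without the low-count filter and without any 1 of the 4 libraries of the pair (adjusted p from 0.0804 to 0.29).

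Srebf2, which encodes SREBP-2, had 125 and 158 CPM (pB2), 163 and 168 (pB3), 143 and 152 (Epcam hi) and 190 and 138 (687g). Its libraries overlapped across the lines, and the test among the 4 lines gave an adjusted p of 0.625. Scap ran from 29.2 to 51.4 CPM, also overlapping (adjusted p = 0.261). Insig2, the second INSIG gene, had 78.9 and 71.9 CPM (pB2), 81.6 and 77.4 (pB3), 100.4 and 83.7 (Epcam hi) and 111 and 112 (687g), with an adjusted p of 0.0358 over the 4 lines. Both 687g libraries were the highest for Insig2, in contrast to Insig1, whose levels were highest in pB2.

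**Figure D3:**
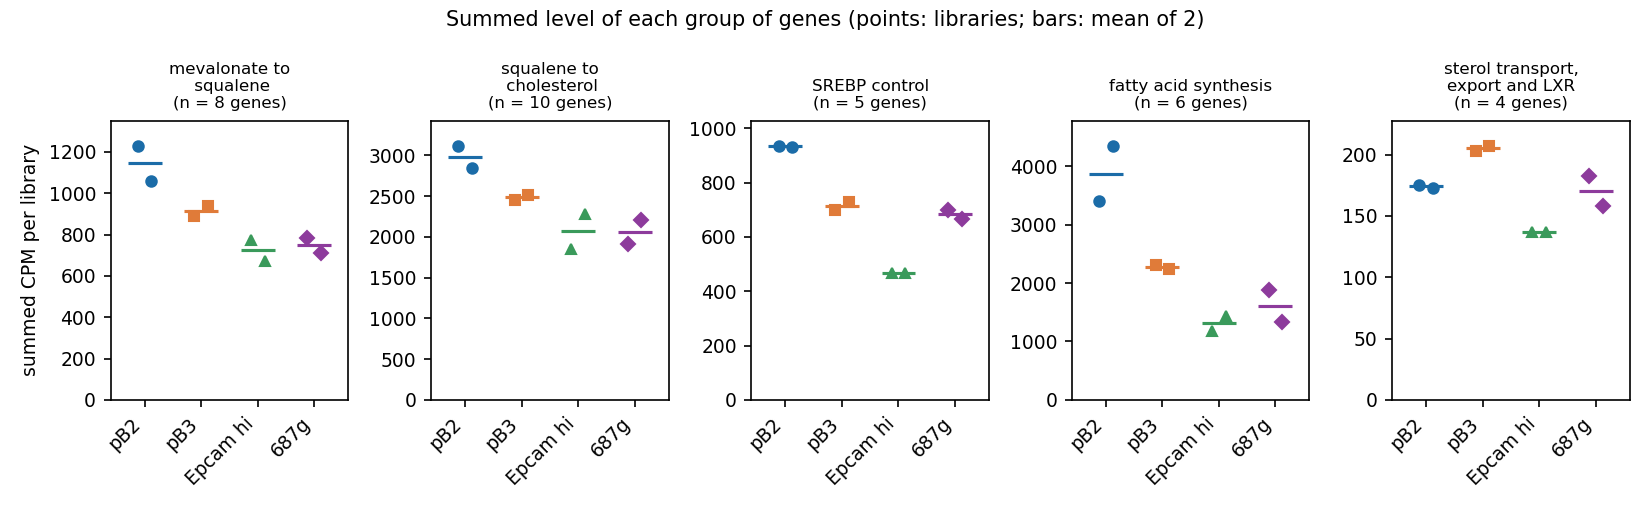
Summed CPM of the members of each role in each library (points) with the mean of the 2 libraries (bars); each panel has its own axis from 0. The pB2 libraries are highest in 4 of the 5 panels, and in the last panel, sterol transport, export and LXR, the pB3 libraries are highest. A sum can rest on few genes and does not describe every gene of its role. In pB2, Cyp51 had a mean of 1358 CPM of the 2983 of squalene to cholesterol. Scd1 and Scd2 had 1760 and 1405 of the 3871 of fatty acid synthesis, and Stard4 152 of the 174 in the last panel.

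Among the 6 fatty acid genes, the desaturase Scd1 showed the widest range, while Acly, Acaca and Fasn, which act in the making of palmitate, did not pass the test among the 4 lines. Between pB3 and pB2, 2 of 6 were lower (33.3% called, against 44.8% of all tested genes). Between 687g and Epcam hi, 1 of 6 was higher (16.7% called, against 36.4%). Scd1 puts the first double bond into stearoyl-CoA and palmitoyl-CoA and lies on chromosome 19 from 44394455 to 44407879. It had 1600 and 1920 CPM (pB2), 317 and 321 (pB3), 190 and 177 (Epcam hi) and 440 and 364 (687g). The 4 lines did not overlap, and the mean of pB2 was 9.60 times that of Epcam hi. The change from pB2 to pB3 was -2.46 ± 0.19 (adjusted p = 1.4e-07), and that from Epcam hi to 687g was 1.13 ± 0.18 (adjusted p = 0.00023). Both were kept under every alternative tried.

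Scd2, the neighbouring desaturase gene on chromosome 19 from 44293674 to 44306864, had 1160 and 1650 CPM (pB2), 1173 and 1119 (pB3), 462 and 618 (Epcam hi) and 672 and 495 (687g). It was not called between pB3 and pB2, whose libraries overlapped (-0.29 ± 0.22, adjusted p = 0.319). Epcam hi and 687g also overlapped and lay below both. Scd1 and Scd2 are close copies of each other, and how reads that fit both were counted is not given in the sources used here, so their split carries that uncertainty.

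Elovl6, which elongates palmitate to stearate, had 227 and 253 CPM (pB2), 159 and 161 (pB3), 64.2 and 96.7 (Epcam hi) and 104 and 109 (687g). The lines did not overlap. The change from pB2 to pB3 was -0.59 ± 0.20 (adjusted p = 0.0267), lost without any 1 of the 4 libraries of the pair (adjusted p from 0.0725 to 0.182), and the change from Epcam hi to 687g did not pass (0.40 ± 0.20, adjusted p = 0.133).

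Fasn, the fatty acid synthase, had 167 and 235 CPM (pB2), 315 and 302 (pB3), 154 and 240 (Epcam hi) and 332 and 180 (687g). The 687g libraries alone spanned most of its range, and its test among the lines gave an adjusted p of 0.139. Acly, which supplies cytosolic acetyl-CoA from citrate, ran from 177 to 314 CPM, with 312 and 177 CPM in the 2 libraries of 687g. Acaca, the acetyl-CoA carboxylase, ran from 16.3 CPM in a 687g library to 42.4 in a pB2 library. Neither passed the test among the lines. Between single pairs, Acaca was called lower in 687g than in pB2 (-0.73 ± 0.25, adjusted p = 0.0249), which was lost without pB2 replicate 2 or 687g replicate 2 (adjusted p 0.203 to 0.227).

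The last 4 genes concern sterol transport, export and the LXR receptors. Stard4, a carrier of cholesterol between membranes, had 154 and 150 CPM (pB2), 172 and 173 (pB3), 108 and 106 (Epcam hi) and 139 and 126 (687g). The lines did not overlap, with Epcam hi lowest, and neither within-model change passed. Nr1h2, which encodes LXR-beta, had 19.1 and 21.5 CPM (pB2), 30.3 and 32.4 (pB3), 29.2 and 30.9 (Epcam hi) and 41.0 and 32.0 (687g). The pB2 libraries were the lowest, and pB3 was higher by 0.62 ± 0.19 (adjusted p = 0.0167), a call lost with total counts and without any 1 of the 4 libraries of the pair (adjusted p from 0.0551 to 0.153).

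Nr1h3, which encodes LXR-alpha, and Abca1, the exporter of cholesterol that LXR receptors induce, were near the limit of these libraries. Nr1h3 had 25 and 27 counts (pB2), 8 and 3 (pB3), 1 and 1 (Epcam hi) and 8 and 2 (687g). Both pB2 libraries were above all others, and pB3 was lower by -2.14 ± 0.64 (adjusted p = 0.0138), a call lost with DESeq2 and without pB2 replicate 1, pB2 replicate 2 or pB3 replicate 2 (adjusted p from 0.078 to 0.228). Abca1 had 7 and 8 counts (pB2), 13 and 23 (pB3), 0 and 1 (Epcam hi) and 34 and 6 (687g). The Epcam hi libraries were below all others. From count sums per total, 687g had 39.6 times the level of Epcam hi, with an exact 95% Poisson interval from 6.71 to 1604 that covers counting error only. edgeR called it higher (adjusted p = 0.00252), and without 687g replicate 1 the call was lost (adjusted p 0.0591).

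The other 4 pairs join lines of different models. Between Epcam hi and pB2, 24 of 33 members (72.7%) were called, 4 higher in Epcam hi and 20 lower, beside 51.4% of all tested genes (25.8% higher, 25.6% lower). The 4 numbered 2 with total counts, with DESeq2, without the low-count filter, and without any 1 of the pB2 or pB3 libraries. Between 687g and pB2, 22 (66.7%) were called, 4 higher in 687g and 18 lower, beside 52.3% of all tested genes (25.6% higher, 26.7% lower). Total counts gave 2 and 21 and moved the median of all genes by -0.23, and the higher members also numbered 2 without either pB2 library. These comparisons share the pB2 libraries with that of pB3 against pB2, so their values are not independent of each other. The median log2 fold change of the members was -0.68 for Epcam hi against pB2 and -0.50 for 687g against pB2.

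Between pB3 and Epcam hi, 12 members (36.4%) were higher in pB3 and 0 lower, beside 29.4% of all tested genes (14.8% higher, 14.6% lower). edgeR found 0 lower at an unadjusted p under 0.05 too, as did DESeq2 and limma-voom at an adjusted p under 0.05. The 12 became 6 without pB3 replicate 1 and 5 without pB3 replicate 2. Between 687g and pB3, 5 members (15.2%) were lower in 687g and 0 higher, beside 25.8% of all tested genes (12.9% lower, 12.8% higher). At an unadjusted p under 0.05, 1 was higher in edgeR's test, Insig2 (0.49 ± 0.17, adjusted p = 0.0524), and DESeq2 and limma-voom each called 1. The split was 1 higher and 4 lower with DESeq2 size factors in edgeR. The members lower in 687g numbered 3 without pB2 replicate 2, pB3 replicate 1 or 687g replicate 2, and 2 without pB3 replicate 2; 1 was higher without either Epcam hi library.

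Of 57 further lipid genes listed from the same pathways, 50 were tested. Between pB3 and pB2, 9 were higher and 16 lower (50% called; 5 higher without pB2 replicate 1), and between 687g and Epcam hi 15 were higher and 7 lower (44%). These shares stand beside 44.8% and 36.4% of all tested genes. Among the 21 tested fatty acid genes of that list, 3 were higher and 9 lower in pB3 than in pB2, and 5 were higher and 5 lower in 687g than in Epcam hi.

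Acss2, which makes acetyl-CoA from acetate, had 34.5 and 29.6 CPM (pB2), 8.74 and 7.64 (pB3), 6.40 and 2.96 (Epcam hi) and 27.0 and 22.6 (687g). Like Scd1, it was lower in pB3 than in pB2 (-1.97 ± 0.29, adjusted p = 6.82e-05) and higher in 687g than in Epcam hi (2.43 ± 0.30, adjusted p = 2.12e-05). Thrsp, a lipogenic nuclear protein, had 164 counts over the pB2 libraries and 0 in the other 6 libraries, so pB2 was at least 51.2-fold higher than pB3 against 3 counts over the line. Acacb, the mitochondrial acetyl-CoA carboxylase, had 106 counts over the pB2 libraries and 2 over those of pB3, a ratio of 49.7 (95% counting interval 13.4 to 415). It had 11 counts over the Epcam hi libraries and 0 over those of 687g, at least 3.70-fold lower in 687g. That call was lost without 687g replicate 1 (adjusted p 0.0564).

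Acsl4, an acyl-CoA synthetase that prefers arachidonate, had 363 and 333 CPM (pB2), 788 and 919 (pB3), 569 and 459 (Epcam hi) and 1584 and 1485 (687g). It was higher in pB3 (1.29 ± 0.18, adjusted p = 5.57e-05) and in 687g (1.58 ± 0.19, adjusted p = 1.33e-05), the same way in both models. Mid1ip1, a partner of acetyl-CoA carboxylase, was higher in pB3 than in pB2 by 0.90 ± 0.17 (adjusted p = 0.000762) and lower in 687g than in Epcam hi by -0.73 ± 0.17 (adjusted p = 0.00471). Pnpla3, a lipid droplet protein, had 43 counts over the Epcam hi libraries and 1 over those of 687g, a ratio of 43.4 (95% counting interval 7.39 to 1754).

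Among 9 tested genes of isoprenoid synthesis and SREBP cleavage, 1 was higher and 2 lower in pB3 than in pB2, and 2 were higher in 687g than in Epcam hi. The shares called, 33.3% and 22.2%, stand beside 44.8% and 36.4% of all tested genes. Mbtps1, the Golgi protease that makes the first cut in SREBP, had 83.3 and 96.7 CPM (pB2), 153 and 155 (pB3), 83.1 and 99.2 (Epcam hi) and 187 and 148 (687g). It was higher in pB3 (0.77 ± 0.19, adjusted p = 0.00358; 0.0675 without pB2 replicate 1) and in 687g (0.88 ± 0.19, adjusted p = 0.00196). Mbtps2, which makes the second cut, was higher in 687g than in Epcam hi (1.05 ± 0.17, adjusted p = 0.000224) and did not pass between pB3 and pB2 (-0.03 ± 0.17, adjusted p = 0.921). Acat1, the mitochondrial thiolase, had 735 and 555 CPM in pB2 and 122 to 176 in the other libraries, and was lower in pB3 by -1.87 ± 0.21 (adjusted p = 5.12e-06). Pdss1, which makes the tail of ubiquinone, was lower in pB3 by -0.81 ± 0.25 (adjusted p = 0.0185), lost without any 1 of the 4 libraries of the pair (adjusted p from 0.0551 to 0.118).

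Among 20 tested genes of sterol handling and LXR targets, 5 were higher and 5 lower in pB3 than in pB2, and 8 were higher and 2 lower in 687g than in Epcam hi. That is 50% called in each pair, beside 44.8% and 36.4% of all tested genes. Soat1, which esterifies cholesterol for storage, had 12.8 and 11.6 CPM (pB2), 95.2 and 99.2 (pB3), 119 and 105 (Epcam hi) and 393 and 428 (687g). Both pB2 libraries were the lowest and those of 687g the highest. It was higher in pB3 than in pB2 by 2.99 ± 0.19 (adjusted p = 1.64e-08) and in 687g than in Epcam hi by 1.87 ± 0.17 (adjusted p = 1.11e-06). Vldlr, a lipoprotein receptor, had 43.5 and 50.02 CPM (pB2), 27.4 and 28.4 (pB3), 2.39 and 1.31 (Epcam hi) and 57.4 and 60.6 (687g), and was higher in 687g than in Epcam hi by 5.02 ± 0.27 (adjusted p = 4.87e-09). It was lower in pB3 than in pB2 by -0.75 ± 0.21 (adjusted p = 0.00923), a call lost without pB2 replicate 2, pB3 replicate 1 or pB3 replicate 2 (adjusted p 0.067 to 0.0881).

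Smpdl3a, a phosphodiesterase gene, had 0 counts over the Epcam hi libraries and 203 over those of 687g, at least 67.0-fold higher. Gramd1b and Gramd1c encode carriers that take cholesterol from the plasma membrane. Gramd1b was higher in pB3 than in pB2 by 2.30 ± 0.53 (adjusted p = 0.00284), from 6 and 13 counts (pB2) and 47 and 40 (pB3). That call was lost without pB2 replicate 1. Gramd1c was lower in pB3 than in pB2 by -1.92 ± 0.30 (adjusted p = 0.000141). It was lower in 687g than in Epcam hi by -6.22 ± 0.44 (adjusted p = 9.18e-08), from 193 and 186 counts (Epcam hi) and 4 and 1 (687g). Stard3, a late endosome sterol carrier, was lower in pB3 than in pB2 by -0.94 ± 0.19 (adjusted p = 0.000932) and higher in 687g than in Epcam hi by 0.70 ± 0.19 (adjusted p = 0.00951). Scarb1, the receptor of high-density lipoprotein, was lower in 687g than in Epcam hi by -0.50 ± 0.17 (adjusted p = 0.03), lost without any 1 of the 8 libraries (adjusted p from 0.0626 to 0.12).

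Some members lie in chromosome stretches whose other genes moved too. The median log2 fold change of pB3 against pB2 was taken over the tested genes that start within 2 Mb of each member. It was -1.11 for the 28 genes around Cyp51, of which 14 were called lower and 4 higher. It was 0.60 for the 139 genes around Tm7sf2 and 0.68 for the 38 genes around Ebp. It was 0.65 for the 7 genes around Msmo1, whose sign turned with the width of the window. The changes of these 4 members themselves were -1.31, 1.39, 0.73 and 1.07. Around Insig1 the median of 16 genes was -0.58. In a window of 1 Mb it was 0.27 over 4 genes, and in one of 5 Mb it was -1.37 over 103 genes, of which 73 were called lower and 7 higher.

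Other members with a neighbour median beyond 0.5 in this pair were not called in it. The median was 0.68 for the 21 genes around Sc5d and 0.67 for the 39 around Dhcr7, 2 members that did not pass (-0.34 and -0.32). Around Sc5d it was 3.87 over 7 genes at 1 Mb and 0.16 at 5 Mb, and around Dhcr7 it was 0.59 and 0.27. It was -0.70 for the 16 genes around Insig2 and 0.52 for the 17 around Abca1, and the signs of both turned in a window of 1 Mb. Abca1 itself changed by 1.33, in the direction of its 2 Mb median, on 15 counts over the pB2 libraries and 36 over those of pB3. Around Scd1 (48 genes) the median was 0.15 while the member changed by -2.46, and around Srebf1 (73 genes) it was 0.09 (-0.06 at 1 Mb and 0.19 at 5 Mb) while the member changed by -1.37. In 687g against Epcam hi, the sole median beyond 0.5 was -0.67, around Abca1. The part of the neighbourhood in the members' changes was not tested.

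**Figure D4:**
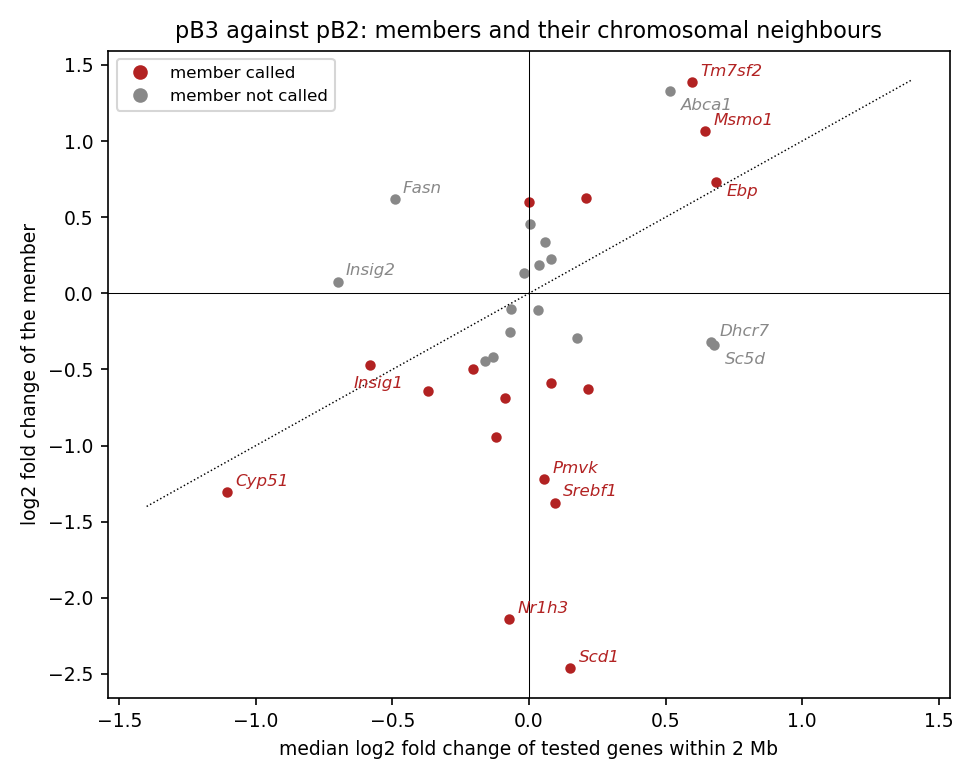
Log2 fold change of each member in pB3 against pB2 (vertical) over the median log2 fold change of the tested genes within 2 Mb of it (horizontal); the dotted line marks equal values. Cyp51, Tm7sf2, Ebp, Msmo1 and Insig1 lie on the side of their neighbours, while Scd1 and Srebf1 lie far below the dotted line, opposite in sign to theirs. For Msmo1, Insig1 and Srebf1 the sign of the neighbour median turned with the width of the window.

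Markers of other cell types were summed in each library. Of 8 adipocyte markers, Adipoq and Lep had 0 counts in every library and the summed level of all 8 ran from 0.194 to 1.91 CPM in pB2, pB3 and Epcam hi. It was 13.0 and 18.5 CPM in 687g, from 173 and 243 counts of Fabp4 and 57 and 33 of Plin4. The 7 leukocyte markers summed to 0.667 to 1.81 CPM, except for 35.9 and 14.2 in Epcam hi, where Cd68 had 505 and 245 counts and Ptprc 2 and 7. The 8 fibroblast markers summed to 2.41 to 81.2 CPM, highest in pB2, from 589 and 1125 counts of Pdgfra and 218 and 390 of Col1a1. There Col1a2 and Lum had 0 counts in both libraries, Col3a1 had 0 and 1, and Dcn 2 and 0. The 5 endothelial markers summed to 0.336 to 7.90 CPM, also highest in pB2. Erg had 66 and 139 counts there and Pecam1 4 and 10, while Cdh5, Kdr and Tek had 0. The 6 epithelial markers summed to 1183 to 8956 CPM, lowest in pB2 (1261 and 1183) and highest in Epcam hi (8956 and 8019). In 687g the sum was 2678 and 2292 CPM. There Epcam had 69 and 55 counts, Cdh1 34 and 11 and Krt19 15 and 10. Krt8 had 4482 and 3000, Krt18 20786 and 15912 and Krt7 22592 and 15125. In a bulk library a mixture of cell states and a shift in every cell cannot be told apart, and the part of these markers in the results was not tested.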

How the data were processed

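RNA-seq libraries of 4 lines, 2 each, were analysed as 8 samples. The authors used STAR 2.6.1a and GRCm38 (mm10) for alignment, per the submitters' processing notes, and counted reads per gene with featureCounts, reverse-stranded per the series' design text; the featureCounts version is not given in the sources used here. The authors deposited raw counts per gene, as whole numbers, for 53379 Ensembl genes, of which 53274 had a symbol in GENCODE M21 and 105 did not.

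From these counts, filterByExpr by line (defaults, minimum count 10, minimum total 15) kept 15890 genes. edgeR 4.0.16 in R 4.3.3 fitted all 8 libraries by quasi-likelihood, with TMM factors (0.926 to 1.12) and a term for each line; F tests were two-sided, with a call at an adjusted p under 0.05; the biological coefficient of variation was 0.178 with 4 residual degrees of freedom. CPM uses TMM-scaled totals. A value after ± is the standard error implied by the log2 fold change and its F statistic. Folds from few counts use a floor of 3 counts over a line, or exact Poisson intervals for 1 to 3 counts, and cover counting error only.

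Alternatives were DESeq2 1.42.0, limma-voom (limma 3.58.1), DESeq2 size factors or total counts in edgeR, no low-count filter, a replicate block, leaving out each library, and only the 4 libraries of a pair. The replicates differed by more than sampling noise (chi-square per degree of freedom from 12.3 to 55.1). In data simulated for pB3 against pB2 over 15144 genes, the right direction was called for 66% of 2-fold, 12% of 1.5-fold and 100% of 4-fold changes. Only 50 genes were given each fold, with the same dispersion for every gene. In the real pair 44.8% of all tested genes were called, so these shares do not give the share of real changes missed.

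The members, their roles and the lists of further lipid genes and markers were chosen with earlier results of these data known. Named genes are members called in both within-model pairs, the 5 called members with the largest change each way in each such pair, the 2 called genes each way of each further list, and members with a neighbour median beyond 0.5; other members are named to account for all 33. Promoter windows came from RefSeq, and 6 of the 33 members (Stard4, Sqle, Scd1, Fdps, Fdft1 and Scd2) had no window there.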

Additional observations from a re-analysis of the deposited data

Results flagged for a closer look

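The changes within the 2 mouse models differed for 13 members in edgeR's quasi-likelihood F test of the difference itself, with Benjamini-Hochberg adjustment over all tested genes. Each value is the log2 change of 687g against Epcam hi minus that of pB3 against pB2. It was above 0 for Scd1 (3.596), Nr1h3 (4.29), Srebf1 (2.05), Pmvk (1.81), Insig1 (1.52), Cyp51 (1.397), Elovl6 (0.99), Lss (0.86) and Mvd (0.74). It was below 0 for Tm7sf2 (-1.89), Msmo1 (-1.26), Dhcr7 (-0.81) and Fdft1 (-0.68).

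The difference was kept with each library left out in turn for Pmvk, Cyp51, Tm7sf2, Msmo1, Srebf1, Insig1 and Scd1. For Mvd, Fdft1, Lss, Dhcr7, Elovl6 and Nr1h3 the call was lost without at least 1 library. Fdft1 had the least support, with the call lost without any 1 of 7 libraries, all but 687g replicate 1 (adjusted p from 0.0501 to 0.249). For Nr1h3 it was lost without pB2 replicate 1, pB3 replicate 2 or 687g replicate 1 (adjusted p from 0.0574 to 0.151), and its 10 counts over the 687g libraries stand against 2 over those of Epcam hi.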

How the results depend on the processing

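No member changed sign under any alternative in a pair where it was called. Of the 198 member values in the 6 pairs, 88 were called, and 44 of these kept their call under all 15 alternatives. In the simulated data, where few genes were changed, 12% of 1.5-fold changes were called. That share does not carry over to the real pair, where 44.8% of all tested genes were called. How many real changes were missed with 2 libraries per line was not measured.

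Counts of called members that moved by over 1.5 times were as follows, with the cause not tested. For fits of only the 4 libraries of a pair or with a library left out, the share of all tested genes called is not given here. A change in those counts therefore cannot be read as particular to the members. With total counts, 3 members were higher in pB3 than pB2 (5 in the main analysis), 3 higher in 687g than Epcam hi (6), 2 higher in Epcam hi than pB2 (4) and 2 higher in 687g than pB2 (4). With only the 4 libraries of the pair, 9 were higher in pB3 than pB2, 2 higher and 1 lower in 687g than Epcam hi, and 1 higher in 687g than pB3 (0). DESeq2 and the fit without the low-count filter gave 1 lower in 687g than Epcam hi (2) and 2 higher in Epcam hi than pB2. DESeq2 size factors gave 1 lower in 687g than Epcam hi. DESeq2, limma-voom and DESeq2 size factors each gave 1 higher in 687g than pB3.

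Leaving out each library in turn gave 2 to 7 members higher and 5 to 12 lower in pB3 than pB2. For 687g against Epcam hi it gave 2 to 8 higher and 1 to 2 lower, and for Epcam hi against pB2 2 to 4 higher. It gave 0 to 1 higher and 2 to 5 lower in 687g than pB3, 5 to 16 higher in pB3 than Epcam hi, and 2 to 5 higher in 687g than pB2. The members whose within-model changes differ numbered 7 to 15, and the further lipid genes higher in pB3 than pB2 5 to 9. Where a line was left with 1 library, that library was assumed to vary like the others.

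No clear pairing of the libraries by replicate number was seen: the replicate differences of 2 lines correlated across genes at -0.0982 to 0.173. Such low correlations cannot show that pairing is absent. A fit with the replicate number as a block gave 1 member lower in 687g than Epcam hi in place of 2, since Tm7sf2 was lost (adjusted p 0.0702). The block also ended the call of Insig1 in pB3 against pB2 (0.0624) and the differences of Mvd (0.0532) and Fdft1 (0.059) between the within-model changes, and no other call of a member in these comparisons. Over all genes it called 6995 in place of 7116 for pB3 against pB2 and 5655 in place of 5789 for 687g against Epcam hi.

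The median of the neighbours in pB3 against pB2 took both signs over the 3 windows for 14 members. For 10 of them its size was at most 0.133 at 2 Mb. For the other 4 it was beyond 0.5 there, and elsewhere it was -0.042 around Msmo1 at both 1 and 5 Mb, 0.27 around Insig1, 0.49 around Insig2 and -0.26 around Abca1 at 1 Mb.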
